A study of Mus musculus with 9 samples.

Results

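The IL-17 receptor chains, their adaptors and the regulators of the IL-17 response were followed in the dermis of mouse ears. The genes were taken by symbol from the deposited count table: the receptor chains Il17ra, Il17rb, Il17rc, Il17rd and Il17re, the adaptors Traf3ip2 and Traf6, and the response regulators Nfkbiz, Zc3h12a and Cebpd. These are 10 of the 52550 genes in the table. All 10 passed the filter on low counts, which kept 22430 genes for testing. RNA was sequenced in 9 libraries in 3 groups of 3, from wild type C57BL/6 mice of 8 weeks (C57BL/6J in the study's methods). The control group, VAS+H2O, had vaseline put on the ear for 5 days. IMQ+H2O received imiquimod cream on the ear for 5 days, a model of psoriasis-like skin inflammation. IMQ+XYF received the same cream and a Chinese herbal decoction, Xiao-Yin-Fang (XYF), at 23.3 mg/g. Per the labels, every mouse was gavaged once daily with 200 µl of water or XYF for 10 days, of which 5 preceded the topical treatment. The study's caption for the ear model gives a more frequent gavage on each day, so the daily dose is uncertain. The study's methods describe RNA extraction from the ear sheets of a pair of mice, without saying if each library was such a pool. The p-values measure the spread between these libraries.

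IL-17A and IL-17F signal through a receptor built from the chains IL-17RA and IL-17RC. IL-17RA is shared: with IL-17RB it binds IL-25 and with IL-17RE it binds IL-17C, whereas IL-17RD is the least studied chain and is also known as Sef, an inhibitor of fibroblast growth factor signalling. The chains recruit the adaptor Act1, the product of Traf3ip2, which engages the ubiquitin ligase TRAF6 and so activates NF-kB. In skin, keratinocytes and fibroblasts answer with chemokines and antimicrobial proteins, and blocking IL-17A or IL-17RA is an established treatment of psoriasis.

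The promoters of Il17rb, Il17rc and Il17rd are shown because these are the 3 receptor chains whose IMQ+XYF and IMQ+H2O libraries did not overlap. RefSeq promoter windows on GRCm38.p6 were matched for 6 of the 10 genes: Il17rb, Il17rc, Il17rd, Il17re, Traf6 and Zc3h12a. Il17ra, Traf3ip2, Nfkbiz and Cebpd were not matched. Each sequence runs 5′ to 3′ on the strand of the gene, up to the first base of the annotated gene, and capitals mark a GC box (GGGCGG). Il17rb is shown at chr14:30008897-30009146 (minus strand), Il17rc at chr6:113471205-113471426 (plus strand) and Il17rd at chr14:27038751-27038940 (plus strand).
Il17rb: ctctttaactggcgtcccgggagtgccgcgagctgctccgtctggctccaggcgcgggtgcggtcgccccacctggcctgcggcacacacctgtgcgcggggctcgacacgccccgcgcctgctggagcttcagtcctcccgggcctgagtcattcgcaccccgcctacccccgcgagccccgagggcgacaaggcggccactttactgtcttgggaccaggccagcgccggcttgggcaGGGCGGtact
Il17rc: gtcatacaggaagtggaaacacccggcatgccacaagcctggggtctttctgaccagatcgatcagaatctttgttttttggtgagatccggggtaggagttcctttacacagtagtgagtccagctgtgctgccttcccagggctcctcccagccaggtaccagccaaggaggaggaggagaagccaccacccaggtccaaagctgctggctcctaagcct
Il17rd: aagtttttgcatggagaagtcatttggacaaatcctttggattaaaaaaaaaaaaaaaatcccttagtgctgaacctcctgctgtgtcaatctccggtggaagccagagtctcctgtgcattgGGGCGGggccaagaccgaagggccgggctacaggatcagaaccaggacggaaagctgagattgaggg
Motifs were searched on both strands in the 250 bases upstream of the RefSeq start, while the sequences printed for Il17rc and Il17rd stop at the annotated gene and hold 222 and 190 bases. A GC box was found for 4 of the 6 genes and in 32.7% of the 32851 promoter windows. The window of Il17rd held 2, of which 1 lies in the printed sequence. An AP-1 motif (TGANTCA) was found for 1 of the 6, Il17rb, against 6.7% of all windows. The C/EBP motif TTGCNNAA and the NF-kB consensus were found for 0 of the 6, against 9.6% and 7.3% of all windows. In Il17rb the AP-1 match did not overlap the GC box, and a match describes only the letters in the window.

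Total counts ran from 28756305 to 79836881 per library, so 3 counts, the smallest number taken as a detection floor, corresponded to between 0.0376 and 0.104 CPM (counts scaled for library size). The 10 genes held between 220 and 27313 counts in each library, well above that floor, and the floor covers counting error only. Fibroblast markers, which define dermis, were present at a summed 10370 to 25350 CPM in every library, and epidermal markers were present too, at 1938 to 13750 CPM. In bulk tissue, fewer cells of a type and less RNA per cell cannot be told apart. The gene bodies of Il17rb, Traf3ip2 and Cebpd share 141, 293 and 562 exon bases with a gene on the opposite strand (Actr8, E130307A14Rik and Spidr), and because the use of strand in the counting was not stated, their counts are less certain.

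Per exon length, the regulators were the most abundant of the genes and the receptor chains other than Il17rc and Il17ra the least. In VAS+H2O the mean level in RPKM (reads scaled for exon length and library size) was 66.3 for Nfkbiz, 60.9 for Cebpd and 17.5 for Zc3h12a. The chains of the IL-17A receptor lay lower, at 9.97 RPKM for Il17rc and 4.40 RPKM for Il17ra, with the adaptors at 9.13 RPKM for Traf3ip2 and 5.49 RPKM for Traf6 between them. Il17rb stood at 2.45 RPKM, Il17re at 2.0 RPKM and Il17rd at 1.22 RPKM. Neighbours in this order overlapped between libraries for Nfkbiz and Cebpd, for Il17rc and Traf3ip2, for Traf6 and Il17ra, and among Il17rb, Il17re and Il17rd. In IMQ+H2O the order of the means began with Cebpd at 61.4 RPKM and Nfkbiz at 46.9 RPKM, and the receptor chains Il17rc and Il17ra stood at 8.79 and 6.87 RPKM. There Il17rc, Traf3ip2 and Il17ra overlapped in turn, as did Il17rb, Il17rd and Il17re. In IMQ+XYF the level of Il17rc was 14.5 RPKM and that of Il17ra 6.72 RPKM, and Il17rd was lowest at 0.475 RPKM, below every library of Il17re. Cebpd and Nfkbiz overlapped there, as did Traf3ip2, Il17ra, Traf6 and Il17rb in turn.

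**Figure D1:**
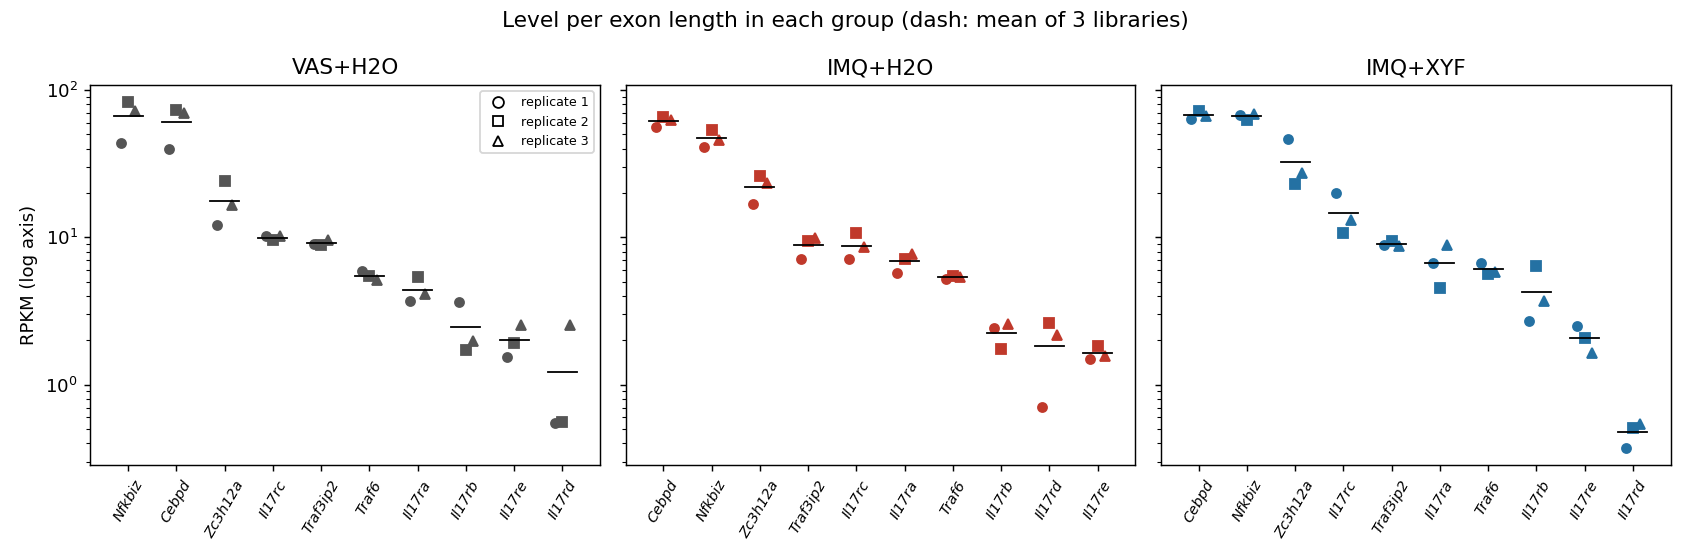
Level per exon length (RPKM, log axis) of the 10 genes in VAS+H2O, IMQ+H2O and IMQ+XYF, ordered by the mean within each group. Points are the 3 libraries and dashes their means. Nfkbiz and Cebpd head the order in each group, at means between 46.9 and 67.2 RPKM, and Il17rd spans 0.550 to 2.56 RPKM in VAS+H2O alone.

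None of the 10 genes was called in any of the 3 comparisons. A call needed an adjusted p of at most 0.05 and an absolute log2 fold change of at least 1. Between IMQ+H2O and VAS+H2O, which asks what imiquimod does, edgeR called 0 of 10, against 0.994% of all tested genes. DESeq2 also called 0 of 10, against 945 of the 35934 genes it tested. An unadjusted p under 0.05 was reached by 2 of the 10 genes, against 20.9% of all tested genes, and the groups did not overlap for 1 of 10, Il17ra, against 31.5%. Il17ra was higher in IMQ+H2O, and 15.1% of all tested genes were higher without overlap. The log2 fold change was above 0 for 4 of the 10 and its median was -0.041, against a median of -0.023 over all tested genes.

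Setting IMQ+XYF against IMQ+H2O asks what the decoction adds under imiquimod. Here edgeR called 0 of 10 genes, against 0.00892% of all tested genes (0.00446% higher and 0.00446% lower). DESeq2 called 0 of 10, against 223 of the 35934 genes it tested. An unadjusted p under 0.05 was reached by 4 of the 10 (Il17rb, Il17rc, Il17rd and Nfkbiz), against 11.7% of all tested genes. The groups did not overlap for 5 of 10 (Traf6 in addition), against 18.0% of all tested genes. Of these, 4 were higher in IMQ+XYF, against 9.22% of all tested genes, and 1 was lower, against 8.74%. For 8 of the 10 genes the log2 fold change was above 0, with a median of 0.26 against 0.0055 over all tested genes. For IMQ+XYF against VAS+H2O, edgeR and DESeq2 both called 0 of 10. Of all tested genes, edgeR called 1.20% (0.695% higher and 0.508% lower) and DESeq2 called 701 of 35934. Here 3 of 10 reached an unadjusted p under 0.05, against 18.3%, and 2 of 10 did not overlap, against 22.1%. Il17rc was the 1 that was higher, against 11.7% of all tested genes, and Il17rd the 1 that was lower, against 10.3%. The gaps were narrow, 28.5 against 27.3 CPM for Il17rc and 5.98 against 6.04 CPM for Il17rd. For 8 of the 10 the log2 fold change was above 0, with a median of 0.14 against -0.024 over all tested genes. The first and second comparisons share the IMQ+H2O libraries and the other pairs of comparisons also share a group, so the differences are not independent of each other.

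**Figure D2:**
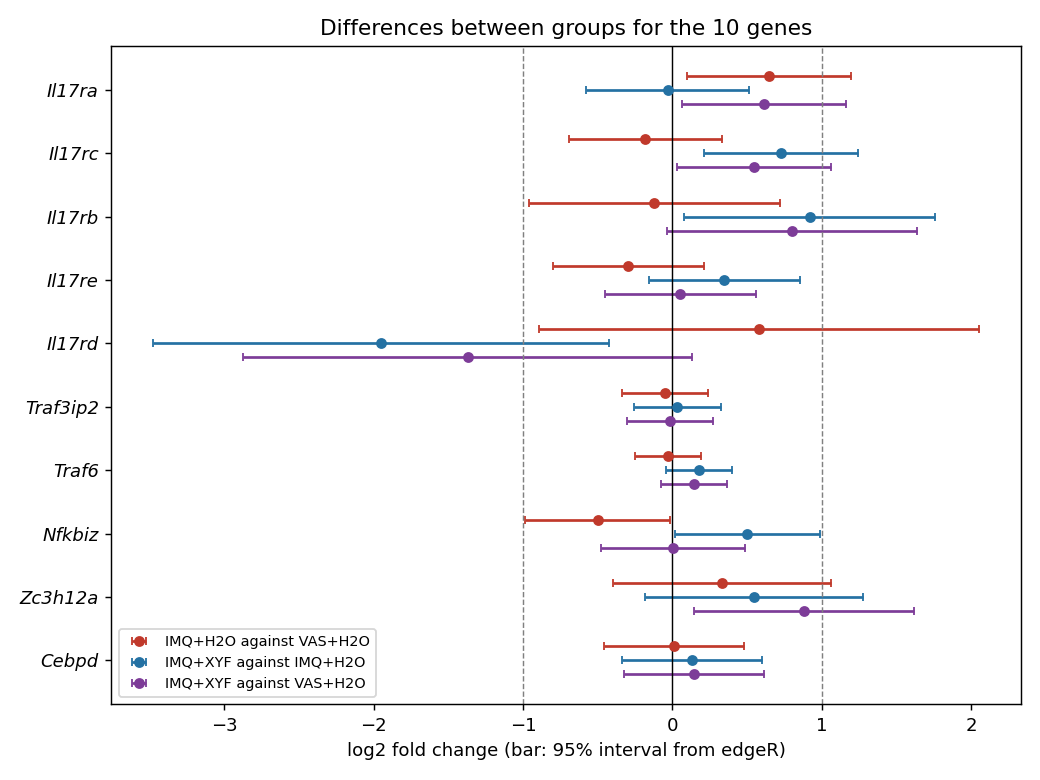
Difference between groups for the 10 genes as log2 fold change from edgeR, with 95% intervals as bars and dashed lines at the fold limit of a call. Il17rd lies farthest from 0, at -1.95 with an interval from -3.48 to -0.42 for IMQ+XYF against IMQ+H2O, and the intervals of Traf3ip2 and Traf6 are the narrowest.

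Il17ra (chromosome 6, 120463247 to 120487559), the chain shared by all the receptors, was at 32.1, 46.2 and 35.9 CPM in the 3 VAS+H2O libraries, at 49.8, 62.2 and 66.6 CPM in IMQ+H2O and at 58.2, 39.5 and 77.1 CPM in IMQ+XYF. Every IMQ+H2O library lay above every VAS+H2O library, while IMQ+XYF reached from within the control range to the highest value of all. The means were 38.1 ± 7.33, 59.5 ± 8.69 and 58.2 ± 18.8 CPM (SD, n = 3 each). Il17ra was 1.56-fold higher in IMQ+H2O than in VAS+H2O, a log2 fold change of 0.65 (SE 0.24) that did not pass the threshold (edgeR, unadjusted p = 0.0265, adjusted p = 0.182). Its log2 fold change was -0.032 between IMQ+XYF and IMQ+H2O, with an interval from -0.58 to 0.52. Against VAS+H2O, the log2 fold change of IMQ+XYF was 0.61 (unadjusted p = 0.0325, adjusted p = 0.223, edgeR). Endothelial markers were also higher in all IMQ+H2O than in all VAS+H2O libraries, at a summed 346.1 to 563 CPM in VAS+H2O, 753.8 to 800.8 CPM in IMQ+H2O and 290.5 to 727.1 CPM in IMQ+XYF, with 0 of 3 markers at 0. Neutrophil markers were at 6.65 to 22.3 CPM in VAS+H2O, 207.3 to 660.5 CPM in IMQ+H2O and 171.1 to 475.4 CPM in IMQ+XYF, with 1 of 7 at 0 in VAS+H2O. The part of these cells in the values of Il17ra was not tested.

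Il17rc (chromosome 6, 113471427 to 113483140), the partner of IL-17RA for IL-17A and IL-17F, was the steadiest receptor chain in the control, at 27.1, 25.5 and 27.3 CPM. It was at 19.1, 28.4 and 23.0 CPM in IMQ+H2O and at 53.0, 28.5 and 35.02 CPM in IMQ+XYF. The lowest IMQ+XYF library and the highest IMQ+H2O library nearly touched, at 28.5 and 28.4 CPM. Il17rc was 1.65-fold higher in IMQ+XYF than in IMQ+H2O by the fit, a log2 fold change of 0.73 (SE 0.23) with an unadjusted p of 0.0114 and an adjusted p of 0.364 (edgeR). Without IMQ+XYF replicate 1, the library at 53.0 CPM, the log2 fold change was 0.44. That library also held the most epidermal marker RNA, 13750 CPM summed over 7 markers, against 3551 and 4736 CPM in the other IMQ+XYF libraries, 1938 to 2878 CPM in IMQ+H2O and 2875 to 5657 CPM in VAS+H2O. None of the 7 markers was at 0 in any group, and the part of epidermis in the values of Il17rc was not tested. Between IMQ+H2O and VAS+H2O the log2 fold change of Il17rc was -0.18, with an interval from -0.70 to 0.34, and between IMQ+XYF and VAS+H2O it was 0.55 (adjusted p = 0.245, edgeR).

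Il17rb (chromosome 14, 29996135 to 30008896), the chain that binds IL-25, was at 13.5, 6.42 and 7.30 CPM in VAS+H2O, at 8.99, 6.53 and 9.52 CPM in IMQ+H2O and at 10.1, 23.5 and 13.8 CPM in IMQ+XYF. All IMQ+XYF libraries lay above all IMQ+H2O libraries, and the single VAS+H2O library at 13.5 CPM lay among them. The log2 fold change between IMQ+XYF and IMQ+H2O was 0.92 (SE 0.37), at an adjusted p of 0.400 by edgeR, and 0.54 without IMQ+XYF replicate 2, which held 23.5 CPM. Against VAS+H2O, the log2 fold change was 0.80 in IMQ+XYF (adjusted p = 0.293, edgeR) and -0.12 in IMQ+H2O (interval -0.96 to 0.72). Cartilage markers were highest in 2 of the 3 libraries where Il17rb was highest, at a summed 1276 CPM in VAS+H2O replicate 1 and 1246 CPM in IMQ+XYF replicate 2. They were at 703.5 and 810.7 CPM in the other VAS+H2O libraries, 212.5 to 335.6 CPM in IMQ+H2O and 410.6 and 665.9 CPM in the other IMQ+XYF libraries, with 1 of 4 markers at 0 in each group. The part of cartilage in the values of Il17rb was not tested.

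Il17re (chromosome 6, 113458484 to 113470758), the chain for the epithelial cytokine IL-17C, lies directly upstream of Il17rc on the same strand. Its level was 8.999, 11.3 and 14.9 CPM in VAS+H2O, 8.78, 10.8 and 9.21 CPM in IMQ+H2O and 14.8, 12.2 and 9.61 CPM in IMQ+XYF. The 3 groups overlapped. Its log2 fold change was -0.29 between IMQ+H2O and VAS+H2O (interval -0.80 to 0.21) and 0.35 between IMQ+XYF and IMQ+H2O (interval -0.16 to 0.85). It was 0.054 between IMQ+XYF and VAS+H2O (interval -0.45 to 0.56).

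Il17rd (chromosome 14, 27038941 to 27107286) varied most between libraries. It was at 6.04, 6.11 and 28.1 CPM in VAS+H2O, at 7.78, 28.9 and 23.7 CPM in IMQ+H2O and at 4.08, 5.59 and 5.98 CPM in IMQ+XYF. The values thus lay either at 23.7 CPM and above, in 1 control and 2 imiquimod libraries, or at 7.78 CPM and below, in the remaining 6. All IMQ+XYF libraries were below all libraries of both other groups, but the highest of them, at 5.98 CPM, nearly touched the VAS+H2O libraries at 6.04 and 6.11 CPM. The log2 fold change between IMQ+XYF and IMQ+H2O was -1.95 (SE 0.67), the largest in size among the 10 genes, with an unadjusted p of 0.0181 and an adjusted p of 0.379 (edgeR), and 0.0635 by DESeq2. Leaving out single libraries moved it between -2.33 and -1.60. It was -1.37 between IMQ+XYF and VAS+H2O, but -0.22 without VAS+H2O replicate 3, the control library at 28.1 CPM. Between IMQ+H2O and VAS+H2O it was 0.58 (adjusted p = 0.644, edgeR) and 1.73 without that control library. It was 0.23 without IMQ+H2O replicate 2, VAS+H2O replicate 1 or VAS+H2O replicate 2. Skeletal muscle markers were also lower in all IMQ+XYF than in all IMQ+H2O libraries, at a summed 33.2 to 167.8 CPM against 290.7 to 559.5 CPM, with 144.5 to 548.2 CPM in VAS+H2O and 0 of 3 markers at 0. The same held for the endothelial markers given beside Il17ra. In VAS+H2O replicate 3, the control library with the highest Il17rd, muscle markers were at their lowest for the group, 144.5 CPM, and endothelial markers at their highest, 563 CPM. The part of these cells in the values of Il17rd was not tested.

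**Figure D3:**
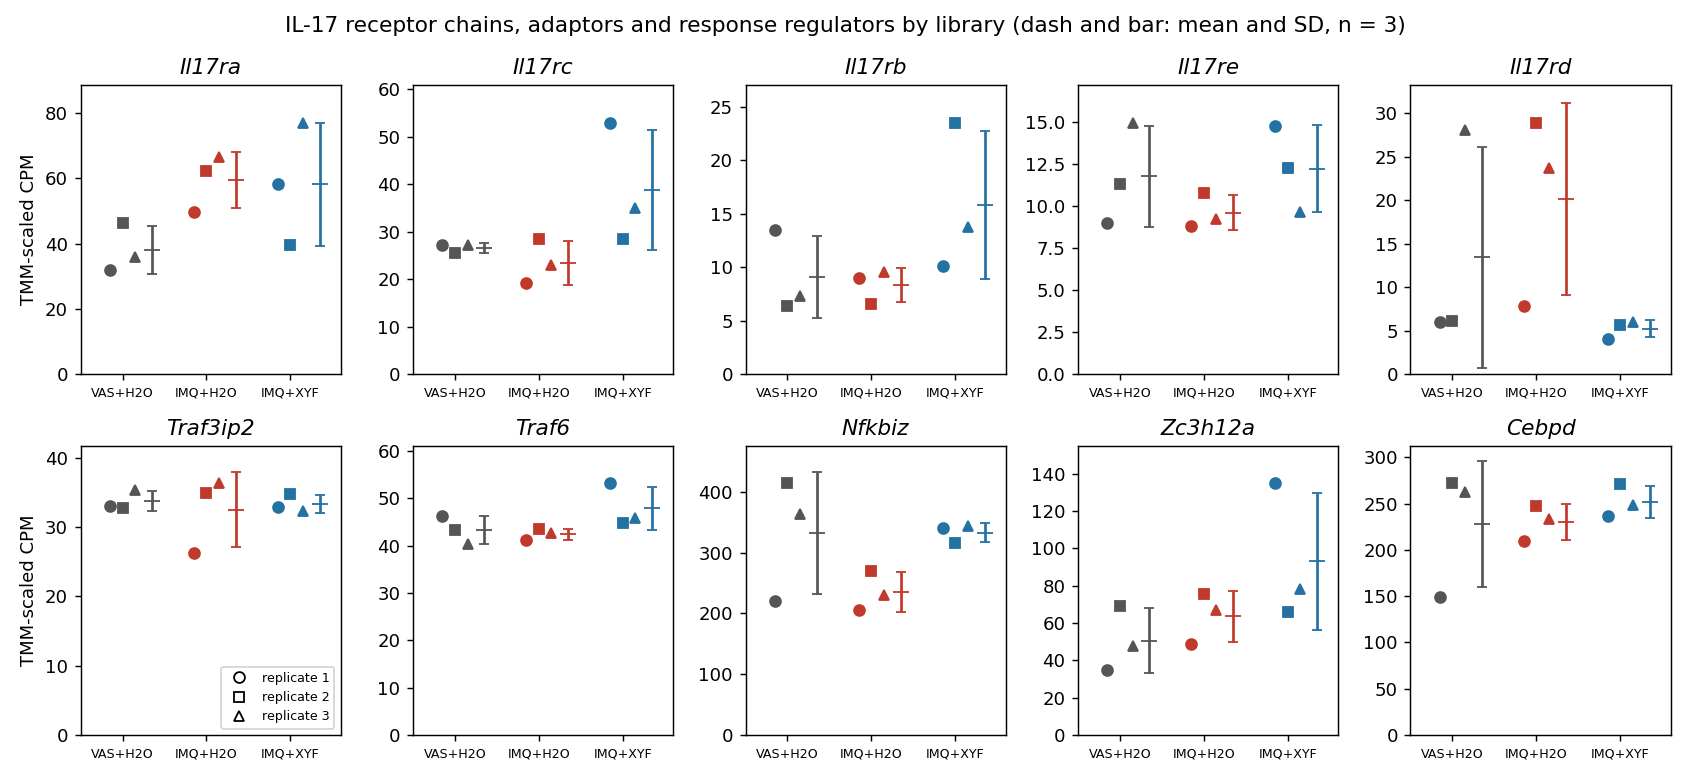
TMM-scaled CPM of each gene in each library, with replicates 1, 2 and 3 as circles, squares and triangles, and the mean and SD of the 3 libraries beside them. The IMQ+XYF libraries of Il17rd all lie at or below 5.98 CPM, while those of IMQ+H2O run from 7.78 to 28.9 CPM. The adaptors in the lower row stay within narrow ranges.

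The adaptors showed the least spread. Traf3ip2 (chromosome 10, 39612934 to 39655307), which encodes Act1, was at 33.0, 32.7 and 35.3 CPM in VAS+H2O, 26.3, 34.9 and 36.3 CPM in IMQ+H2O and 32.8, 34.8 and 32.3 CPM in IMQ+XYF. The groups overlapped throughout, and the SD of its log2 CPM over the 9 libraries was 0.14. Its log2 fold change was -0.050 between IMQ+H2O and VAS+H2O (interval -0.34 to 0.24), 0.034 between IMQ+XYF and IMQ+H2O (interval -0.25 to 0.32) and -0.016 between IMQ+XYF and VAS+H2O (interval -0.30 to 0.27). Traf6 (chromosome 2, 101678429 to 101701669), the ubiquitin ligase downstream of Act1, was at 46.2, 43.3 and 40.4 CPM in VAS+H2O, 41.1, 43.4 and 42.6 CPM in IMQ+H2O and 53.1, 44.7 and 45.9 CPM in IMQ+XYF. Its IMQ+XYF libraries all lay above its IMQ+H2O libraries, by a log2 fold change of 0.18 (SE 0.098, adjusted p = 0.498, edgeR). The interval of that difference, -0.045 to 0.40, bounds it below the fold limit of a call. Against VAS+H2O, its log2 fold change was -0.031 in IMQ+H2O (interval -0.25 to 0.19) and 0.15 in IMQ+XYF (interval -0.076 to 0.37).

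Nfkbiz (chromosome 16, 55811375 to 55838899) encodes IkB-zeta, a nuclear cofactor of NF-kB that is needed for many IL-17 responses. It was at 220.2, 414.1 and 363.1 CPM in VAS+H2O, at 205.2, 270.1 and 230.6 CPM in IMQ+H2O and at 339.9, 315.8 and 343.9 CPM in IMQ+XYF. The IMQ+XYF libraries lay above all IMQ+H2O libraries and close together, while VAS+H2O spanned both. The means were 332.5 ± 100.5, 235.3 ± 32.7 and 333.2 ± 15.2 CPM (SD, n = 3 each). The log2 fold change was -0.50 (SE 0.21) between IMQ+H2O and VAS+H2O at an adjusted p of 0.230, and 0.50 (SE 0.21) between IMQ+XYF and IMQ+H2O at an adjusted p of 0.417 (edgeR). Both comparisons use the IMQ+H2O libraries, so the pair of opposite signs is not independent. For IMQ+XYF against VAS+H2O it was 0.0031 (interval -0.48 to 0.49). Leaving out single libraries moved the former between -0.73 (without VAS+H2O replicate 1) and -0.31 (without VAS+H2O replicate 2), and the latter between 0.41 and 0.62. Epidermal markers were also higher in all IMQ+XYF than in all IMQ+H2O libraries. In replicate order their sums were 4122, 5657 and 2875 CPM in VAS+H2O, 1938, 2878 and 2297 CPM in IMQ+H2O and 13750, 3551 and 4736 CPM in IMQ+XYF. Within IMQ+XYF these sums spread widely while Nfkbiz did not, and the part of epidermis in the values of Nfkbiz was not tested.

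Zc3h12a (chromosome 4, 125118423 to 125127840) encodes Regnase-1, a ribonuclease that degrades inflammatory mRNAs and restrains IL-17 signalling. Its level was 34.7, 69.1 and 47.8 CPM in VAS+H2O, 48.7, 75.4 and 66.9 CPM in IMQ+H2O and 134.8, 66.1 and 78.4 CPM in IMQ+XYF. The 3 groups overlapped, and the highest value was in IMQ+XYF replicate 1, the library with 13750 CPM of epidermal markers. The part of epidermis in the values of Zc3h12a was not tested. The log2 fold change of Zc3h12a between IMQ+XYF and VAS+H2O was 0.88 (SE 0.32), at an unadjusted p of 0.0241 and an adjusted p of 0.192 (edgeR), and it was 0.52 without that library. Against IMQ+H2O it was 0.55, and 0.18 without the same library. For IMQ+H2O against VAS+H2O it was 0.33 (SE 0.32, adjusted p = 0.588, edgeR). Cebpd (chromosome 16, 15887286 to 15891031), a transcription factor induced by IL-17, was at 149.5, 271.8 and 262.6 CPM in VAS+H2O, 209.2, 247.2 and 233.1 CPM in IMQ+H2O and 236.3, 270.9 and 248.3 CPM in IMQ+XYF. The groups overlapped, and its log2 fold change was 0.012 between IMQ+H2O and VAS+H2O (interval -0.46 to 0.48), 0.13 between IMQ+XYF and IMQ+H2O (interval -0.34 to 0.60) and 0.14 between IMQ+XYF and VAS+H2O (interval -0.32 to 0.61).

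For the genes with an SD of log2 CPM of at least 0.5 over the 9 libraries, the 3 genes with the most similar pattern were sought. The measure was the root mean square difference of log2 CPM centred over the 9 libraries, where smaller is more alike. For Il17rd (SD 1.13) these were Mfsd4a at 0.46, Trim30d at 0.63 and C1s1 at 0.63, against a median of 1.09 over the genes compared. Mfsd4a was at 19.0, 29.8 and 19.5 CPM in the 3 libraries where Il17rd was high, and at 3.76 to 12.8 CPM in the rest. For Il17rb (SD 0.60) they were Timp4 at 0.18, Atoh8 at 0.22 and G0s2 at 0.23, against a median of 0.62. Timp4, an inhibitor of matrix metalloproteinases, was at 129.6 CPM in IMQ+XYF replicate 2 and 94.2 CPM in VAS+H2O replicate 1, its highest libraries and those of the highest cartilage markers. For Zc3h12a (SD 0.55) they were Brca1 at 0.14, Galnt6 at 0.17 and Esco2 at 0.18, against a median of 0.58. All 3 were highest in IMQ+XYF replicate 1, at 8.20, 30.2 and 5.91 CPM. Because the 3 genes were picked for the smallest difference, their place below the median and their shared high libraries follow from that choice. These are descriptions over 9 libraries that share their groups and depth.

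**Figure D4:**
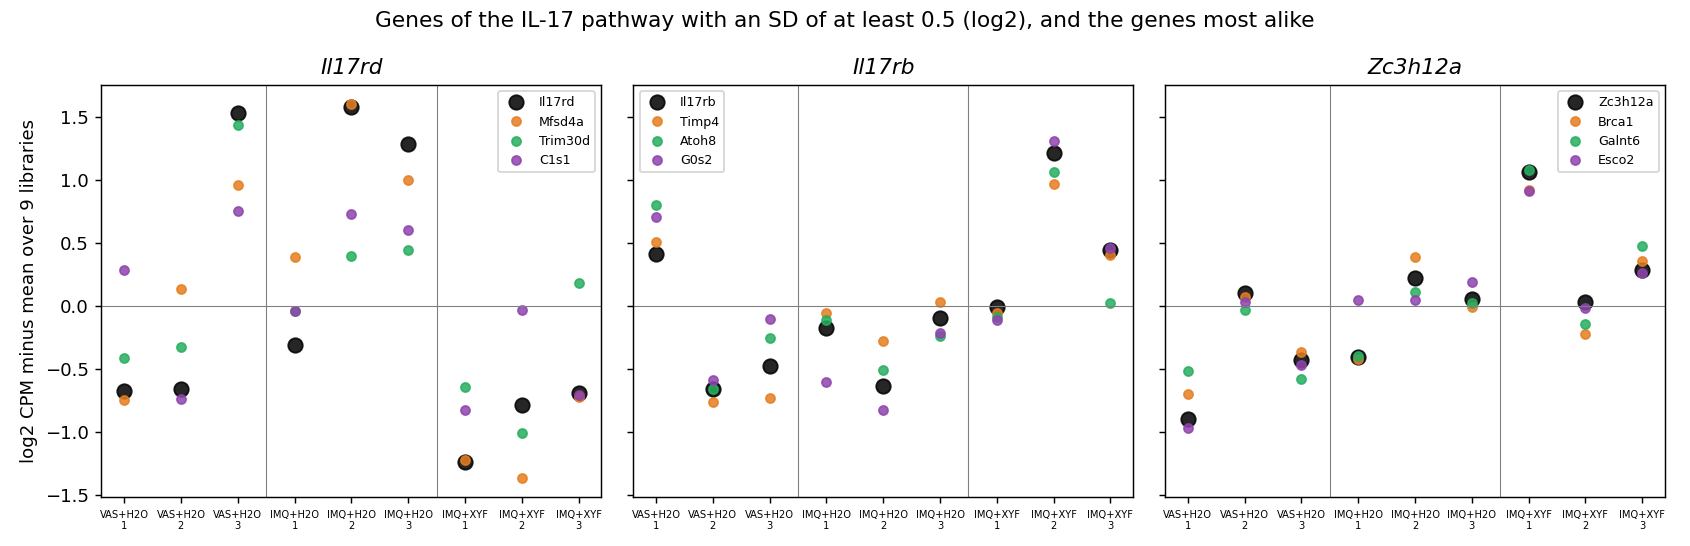
Log2 CPM minus its mean over the 9 libraries for Il17rd, Il17rb and Zc3h12a (black) and, in colour, the 3 genes with the most similar pattern to each. Il17rd is high in 3 libraries of VAS+H2O and IMQ+H2O, Il17rb peaks in IMQ+XYF replicate 2 and Zc3h12a in IMQ+XYF replicate 1. The genes in colour were picked for this likeness.

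The other genes of the pathway were read from 4 lists holding 79 genes, of which 75 could be tested. Among the ligands, Il17a was read 18, 11 and 7 times in IMQ+XYF, 0, 14 and 5 times in IMQ+H2O and 0 times in each control library, so that its fitted fold change depends on the prior count. Il17f had 13, 33 and 45 counts in VAS+H2O, 11, 40 and 48 in IMQ+H2O and 32, 48 and 48 in IMQ+XYF. Il17c, the ligand of IL-17RE, was too low to be tested, at 1 to 3 counts in VAS+H2O, 3 to 11 in IMQ+H2O and 55, 8 and 12 in IMQ+XYF, the 55 again in the library with the most epidermal markers. None of the 4 tested ligands was called by edgeR in any comparison. Of all tested genes, edgeR called 0.994% in IMQ+H2O against VAS+H2O, 0.00892% in IMQ+XYF against IMQ+H2O and 1.20% in IMQ+XYF against VAS+H2O. In both comparisons with VAS+H2O, 1 of the 4 had an unadjusted p under 0.05, Il17a, which was higher. The shares of all tested genes with such an unadjusted p were 20.9% for IMQ+H2O and 18.3% for IMQ+XYF. In IMQ+XYF against IMQ+H2O the 1 was Il17b, lower at a log2 fold change of -1.28 (adjusted p = 0.403, edgeR), against 11.7% of all tested genes. Il17b was picked after its values were seen. DESeq2 called Il17a between IMQ+H2O and VAS+H2O, where it called 945 of all genes.

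The intracellular signalling list (TRAF proteins, kinases, NF-kB and AP-1 subunits and mRNA-binding proteins) was read in the same way. Of its 35 genes, edgeR and DESeq2 called 0 in each comparison. Between IMQ+H2O and VAS+H2O, IMQ+XYF and IMQ+H2O, and IMQ+XYF and VAS+H2O, edgeR called 0.994%, 0.00892% and 1.20% of all tested genes. DESeq2 called 945, 223 and 701 of all genes. At an unadjusted p under 0.05 there were 9 genes between IMQ+H2O and VAS+H2O (2 higher and 7 lower), against 20.9% of all tested genes. There were 3 between IMQ+XYF and IMQ+H2O (3 higher), against 11.7%, and 3 between IMQ+XYF and VAS+H2O, against 18.3%. The median log2 fold changes were -0.096, 0.094 and -0.040, against -0.023, 0.0055 and -0.024 over all tested genes. The 7 lower genes included the AP-1 subunits Jun, at a log2 fold change of -0.78 (adjusted p = 0.0596, edgeR), Junb at -0.57 (0.0758), Fos at -0.73 (0.109) and Jund at -0.60 (0.117), which were chosen after their values were seen. The 3 higher genes between IMQ+XYF and IMQ+H2O were Fos at 0.49 (adjusted p = 0.414, edgeR), Jun at 0.42 (0.395) and Junb at 0.39 (0.379), while Jund was at 0.094. Both comparisons use the IMQ+H2O libraries, so the opposite signs are not independent. Of the 12 feedback regulators, such as IkB-alpha and A20, edgeR called 0 in each comparison, against the same 0.994%, 0.00892% and 1.20%. Their medians were -0.16, 0.0042 and -0.15. An unadjusted p under 0.05 was reached by 2, 0 and 1 of these regulators, against 20.9%, 11.7% and 18.3% of all tested genes. DESeq2 called Zc3h12d, a relative of Zc3h12a, in both comparisons with VAS+H2O, where it called 945 and 701 of all genes.

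Calls were found among the downstream target genes, a list chosen with earlier results of these data known. The shares of all tested genes beside its counts are therefore not an independent test. Of the 24 tested, 7 rose in IMQ+H2O against VAS+H2O, against 0.646% of all tested genes called higher, and the median log2 fold change was 1.92. The neutrophil attractant Cxcl5 had a log2 fold change of 8.44 (adjusted p = 0.0177), the acute-phase gene Saa3 8.34 (0.0162), Cxcl3 5.89 (0.0248) and S100a8, a subunit of calprotectin, 5.22 (0.0247), all by edgeR. The cytokine gene Il19 rose from 0, 3 and 3 counts in VAS+H2O to 116, 320 and 610 counts in IMQ+H2O (edgeR, adjusted p = 0.0110). The other targets called by edgeR were S100a9 and Lcn2. DESeq2 called these 7 and, in addition, Cxcl2 (2.09), Mmp9 (1.79), Mmp3 (1.45) and Ccl20 (2.44, adjusted p = 0.00271). It called 945 of all genes. S100a8 and S100a9 also stand in the neutrophil marker list, whose sums are given above beside Il17ra. In IMQ+XYF against IMQ+H2O, edgeR called 0 of the 24 targets, against 0.00892% of all tested genes, with a median log2 fold change of -0.16. An unadjusted p under 0.05 was reached by 3, against 11.7% of all tested genes. DESeq2 called 1, Ccl20 (2.43, adjusted p = 0.0114), against 223 of all genes. Against VAS+H2O, 8 of the 24 rose in IMQ+XYF, against 0.695% of all tested genes called higher, with a median log2 fold change of 1.52. They were the 7 genes above and Ccl20, whose log2 fold change was 4.85 (adjusted p = 0.0273, edgeR). DESeq2 called these 8 and Defb14 (4.43) among the targets, and 701 of all genes. Defb14 was read 0, 5 and 0 times in VAS+H2O and 37, 8 and 126 times in IMQ+XYF, and edgeR did not call it (adjusted p = 0.121). Ccl20 was at 140.9 CPM in IMQ+XYF replicate 1 and at 25.7 and 29.97 CPM in the other IMQ+XYF libraries, against 11.5 to 13.2 CPM in IMQ+H2O and 1.21 to 3.72 CPM in VAS+H2O. IMQ+XYF replicate 1 is also the library with the most epidermal markers, 13750 CPM, and the part of epidermis in the values of Ccl20 was not tested. All these targets are named because of their values. Cxcl5, Saa3, Il19, Cxcl3 and S100a8 are named by the rule that takes the 5 largest called changes. S100a9, Lcn2, Ccl20 and the genes called only by DESeq2 were added outside that rule, after their values were seen. The count of called targets rests on few libraries: without VAS+H2O replicate 1, 2 or 3 the pathway calls between IMQ+H2O and VAS+H2O numbered 2, 2 and 1, and without IMQ+H2O replicates 2 and 3 they numbered 2 and 3. For IMQ+XYF against VAS+H2O they numbered 3, 1 and 1 without the same control libraries and 3 without IMQ+XYF replicate 1 or 3.

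**Figure D5:**
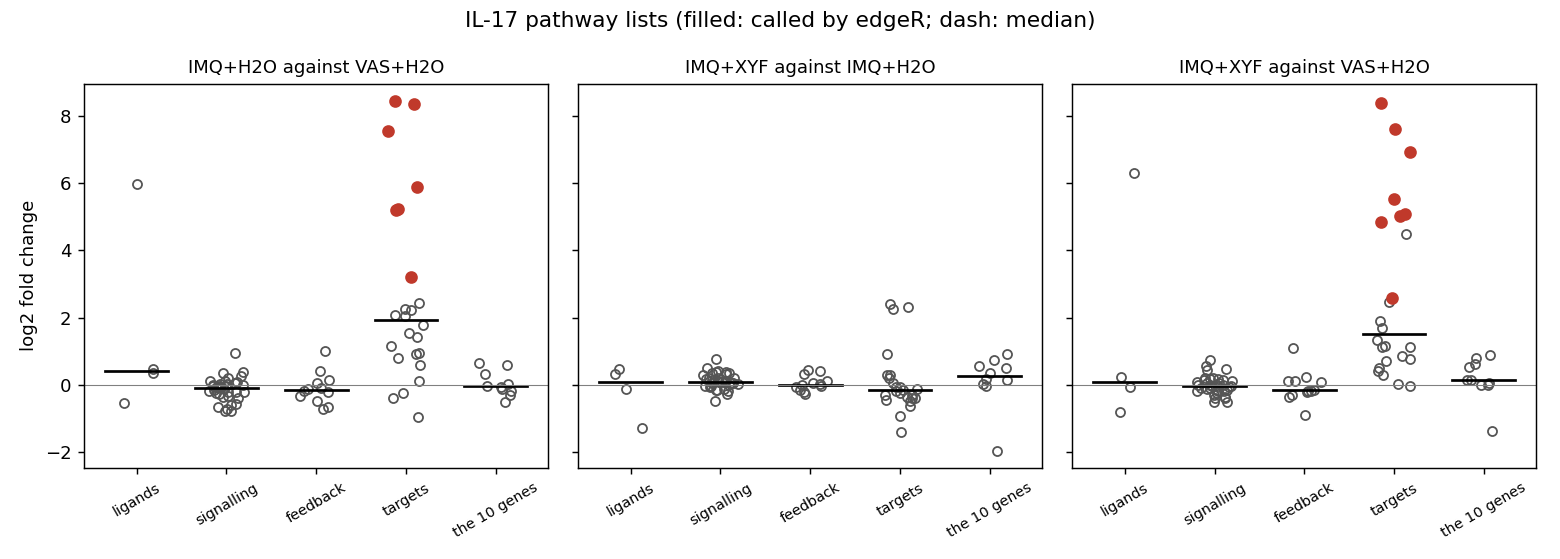
Log2 fold changes of the 75 tested genes in the 4 pathway lists and of the 10 genes, one panel per comparison, with genes called by edgeR filled and the median of each list as a dash. Called genes are found only among the targets, 7 in the first panel, 0 in the second and 8 in the third, and the fitted value of the lone ligand near 6, Il17a, depends on the prior count.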

How the data were processed

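RNA-seq of 9 libraries from the dermis of mouse ears was analysed, 3 per group. The deposited file holds raw read counts per Ensembl gene, made by the authors and not normalized. According to the submitters' processing notes the tools were FastQC, STAR 2.5 (the aligner), Cuffnorm and DESeq 1.22.1, and the genome was GRCm38. The counting tool, its use of strand and its handling of reads with several alignments were not given in the sources used here. Total counts ran from 28756305 to 79836881 per library, and the common biological coefficient of variation was 0.296.

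Counts were tested with edgeR 4.0.16 in R 4.3.3: filterByExpr, TMM scaling and 1 quasi-likelihood fit over all 9 libraries with a coefficient per group. A gene was called at a Benjamini-Hochberg adjusted p of at most 0.05, over all 22430 genes, and an absolute log2 fold change of at least 1. The SE of a log2 fold change was derived from its F statistic. Intervals are 95%. Levels per length used the union of exons of GENCODE vM21. The script was tested on simulated data. DESeq2 1.42.0, other scaling factors, no low-count filter, no fold limit, a replicate block, a fit on only the groups compared and leaving out each library were alternatives. Replicate pairs differed beyond sampling noise, with a chi-square per degree of freedom of 34.0 to 196.5.

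All 10 genes were named in each comparison, and of the lists the called genes (at most the 5 largest per list and direction) with Il17a, Il17f and Il17c. Pattern likeness was sought for genes with an SD of log2 CPM (prior count 2) of 0.5 or more, among genes with a mean of 100 counts or more, leaving out symbols of the Gm and Rik kind. The genes and lists were chosen with earlier results of these data known.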

Additional observations from a re-analysis of the deposited data

How the results depend on the processing

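None of the 10 genes was called under any alternative. Of 450 recomputed log2 fold changes of these genes, 428 kept their direction and side of the threshold and 22 changed sign. Among them, 1 passed an adjusted p of 0.05 by edgeR, below the fold limit: Il17ra between IMQ+XYF and VAS+H2O without IMQ+XYF replicate 2, at 0.88 (0.0415). Sign changes other than by leaving out a library were Traf6 between IMQ+H2O and VAS+H2O under upper-quartile scaling (0.0064) and Traf3ip2 between IMQ+XYF and VAS+H2O under DESeq2 (0.013) and its size factors (0.0088). Leaving out single libraries gave, between IMQ+H2O and VAS+H2O, -0.32 to 0.28 for Il17rb, -0.12 to 0.080 for Traf3ip2, -0.081 to 0.014 for Traf6 and -0.22 to 0.15 for Cebpd. Between IMQ+XYF and IMQ+H2O it gave -0.28 to 0.21 for Il17ra and -0.096 to 0.14 for Traf3ip2. Between IMQ+XYF and VAS+H2O it gave -0.11 to 0.27 for Il17re, -0.037 to 0.022 for Traf3ip2, -0.22 to 0.19 for Nfkbiz, -0.085 to 0.29 for Cebpd and -0.30 to 0.20 for the ratio of Il17rc to Il17ra.

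In the comparisons of IMQ+H2O with control, of IMQ+XYF with IMQ+H2O and of IMQ+XYF with control, in that order, edgeR called 223, 2 and 270 of all genes and 7, 0 and 8 of the pathway lists. DESeq2 called 945, 223 and 701 of all genes and 13 and 1 pathway genes in the first and second. The fit on only the groups compared called 496, 1 and 33 of all genes and 4 pathway genes in the last. With the replicate number as a block these were 86, 0 and 54, and 4 in the last. Deviations from the group means correlated at -0.18 to 0.12 between same-numbered libraries and at -0.16 to 0.28 between differently numbered ones. With 3 libraries per group, these values cannot decide if the numbers pair the samples. Upper-quartile scaling left 0 genes in the second comparison, and no fold limit gave 453 in the last. Leaving out single libraries gave 25 to 455, 0 to 4 and 12 to 592 of all genes, and 1 to 8, 0 to 0 and 1 to 8 pathway genes. In both comparisons with control, the most genes were called without IMQ+XYF replicate 2 and the fewest without IMQ+H2O replicate 3 and VAS+H2O replicate 2, respectively. The cause of these differences was not tested. With 3 libraries per group, the 95% intervals of Il17rd on the log2 scale were wide. In the same order of comparisons they were -0.89 to 2.055, -3.48 to -0.42 and -2.88 to 0.13. Il17c was too shallow to test.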

Other observations

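The ratio of the 2 chains of the IL-17A receptor was computed after the values were seen. Il17rc divided by Il17ra, both per exon length, was 2.75, 1.79 and 2.46 in VAS+H2O, 1.25, 1.48 and 1.12 in IMQ+H2O and 2.95, 2.34 and 1.47 in IMQ+XYF. All IMQ+H2O libraries lay below all VAS+H2O libraries. The mean log2 ratio differed by -0.85 between IMQ+H2O and VAS+H2O (two-sided exact permutation p = 0.1, the smallest that 20 arrangements can give), by 0.77 between IMQ+XYF and IMQ+H2O (exact permutation p = 0.2) and by -0.081 between IMQ+XYF and VAS+H2O (exact permutation p = 0.8). None of these 3 comparisons could reach 0.05, so the ratios stand as values.

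Nfkbiz had an SD of log2 CPM of 0.36, below the limit set for the search for similar genes, and was looked up after its values were seen. The genes most alike over the 9 libraries were Tiparp at a root mean square difference of 0.10, Srf at 0.11 and Nfkbia at 0.11. The median was 0.40, and genes picked for likeness lie below it by that choice.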
